A study of Mus musculus with 8 samples.

Results

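Csmd1, Csmd2 and Csmd3 are the 3 mouse genes for the CUB and sushi multiple domain proteins, and all of them are very long. Accessible chromatin at these genes was described in granule neuron progenitors (GNPs) that differed in Chd7 genotype. A peak of accessibility was taken as a member when it overlapped the body of 1 of the genes or the 20 kb on either side, in GENCODE annotation of the mm10 build. Of 152984 WT peaks 181 were members, of 106974 het peaks 107 and of 174407 mutant peaks 220. The genes were selected on the number of WT peaks of Csmd3 with no counterpart in the mutant list. That property of Csmd3, and every other measure of WT against mutant peaks here, is therefore given as a description with no test.

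Csmd proteins are giant transmembrane molecules whose extracellular part is built from alternating CUB domains and sushi repeats, followed by a run of sushi repeats, a membrane span and a short cytoplasmic tail. Sushi repeats are the building block of the regulators of complement, and CUB domains occur in complement proteases, neuropilins and developmental proteases. The 3 genes are expressed mainly in the nervous system, where Csmd1 is known to limit complement activity and Csmd3 to take part in dendrite growth. Their length lies almost entirely in introns, where distal regulatory elements of long neuronal genes are commonly found.

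The libraries were made by ATAC-seq, in which the transposase Tn5 tags accessible DNA with adapters. GNPs are the dividing precursors of cerebellar granule neurons, and they were isolated from the cerebellum of mice at postnatal day 7, with the strain given as C56Bl6/J and no treatment. The labels give 3 Chd7 wild-type (WT) libraries, 3 mutant and 2 heterozygous (het). For its RNA measurements the study describes WT as Chd7 f/f, het as Atoh1-Cre::Chd7 f/+ and mutant as Atoh1-Cre::Chd7 f/f. On that description the control cells carry floxed alleles without Cre, the Cre acts in the granule cell lineage, and some Chd7 remained in the posterior cerebellum of the mutants. Chd7 is an ATP-dependent chromatin remodelling enzyme. The study calls the WT and mutant replicates technical.

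Each of the 3 lists was called on the pooled libraries of its genotype, so a gene has 1 value per genotype, no replicate error can be given, and no difference was tested. Tags left after filtering numbered 50394313 for WT, 51030229 for mutant and 30923002 for het. Tags were 107 bp long in WT and het and 76 bp in mutant, and the het list was called from another alignment with a 200 bp extension. Genotype cannot be told apart from tag length between WT and mutant, nor from alignment, extension and depth between het and the others. Of 9 GNP markers, 8 had a start site peak in WT, 8 in het and 9 in mutant. Markers of Purkinje cells had 1 at 3 of 4 genes in each list, and those of microglia at 1 of 3 in WT and 0 of 3 in het and mutant. Interneuron markers had 1 at 3 of 3 genes in WT and mutant and at 2 of 3 in het. Those of glia and of the oligodendrocyte lineage had 1 at 2 of 3 genes each, and those of endothelium at 1 of 2, in every list. Start site peaks were thus also present at markers of other cell types. Chd7 itself, counted over the same kind of window, held 33 WT, 23 het and 41 mutant peaks and kept its start site peak in each list, so peak positions there do not check the labels.

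Csmd1 (ENSMUSG00000060924.15) lies on the minus strand of chromosome 8 from 15892537 to 17535586, a length of 1643 kb. Csmd2 (ENSMUSG00000028804.20) lies on the plus strand of chromosome 4 from 127987857 to 128567656, a length of 579.8 kb. Csmd3 (ENSMUSG00000022311.15) lies on the minus strand of chromosome 15 from 47580637 to 48792063, a length of 1211 kb. Intron and exon numbers below count along 1 GENCODE transcript per gene, with 70, 71 and 71 exons. Of the 181 WT peaks 169 had their summit in an intron and 3 in an exon, and of the 220 mutant peaks 202 and 4.

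6 sequences carry the findings described below: the strongest WT peak of Csmd3, which was kept in the mutant, the pair of strongest WT peaks of Csmd3 lacking any mutant peak within 300 bp, the strongest mutant peaks of Csmd3 and Csmd1 without a WT peak, and the strongest WT peak of Csmd2 without a mutant peak. Each is intronic and is printed 5′ to 3′ on the plus strand of the reference genome (GRCm38.p6), as the whole peak or, for the first, as 100 bp on either side of the summit. Capitals mark the letters CANNTG, the core of the E-box that basic helix-loop-helix factors such as Atoh1 and Neurod1 recognise.
Csmd3, strongest WT peak (kept), chr15:48618726-48618926: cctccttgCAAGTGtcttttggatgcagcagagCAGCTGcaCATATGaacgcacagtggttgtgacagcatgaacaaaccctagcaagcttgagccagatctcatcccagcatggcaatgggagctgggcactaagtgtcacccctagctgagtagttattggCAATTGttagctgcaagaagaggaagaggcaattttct
Csmd3, strongest WT peak without a mutant peak, chr15:48332568-48332722: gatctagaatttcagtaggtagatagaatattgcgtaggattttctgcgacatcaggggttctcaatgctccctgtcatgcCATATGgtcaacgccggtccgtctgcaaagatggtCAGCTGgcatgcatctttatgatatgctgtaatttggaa
Csmd3, next WT peak without a mutant peak, chr15:48590248-48590445: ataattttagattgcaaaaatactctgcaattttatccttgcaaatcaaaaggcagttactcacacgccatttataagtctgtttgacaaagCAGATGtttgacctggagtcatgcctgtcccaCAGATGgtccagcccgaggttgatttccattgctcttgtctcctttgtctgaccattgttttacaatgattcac
Csmd3, strongest mutant peak without a WT peak, chr15:48419300-48419573: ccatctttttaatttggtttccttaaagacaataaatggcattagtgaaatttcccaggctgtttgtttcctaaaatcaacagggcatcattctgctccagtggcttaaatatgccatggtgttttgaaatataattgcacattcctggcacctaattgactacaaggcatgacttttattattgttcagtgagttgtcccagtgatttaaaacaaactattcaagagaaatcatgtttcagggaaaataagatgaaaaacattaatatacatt
Csmd1, strongest mutant peak without a WT peak, chr8:16216113-16216285: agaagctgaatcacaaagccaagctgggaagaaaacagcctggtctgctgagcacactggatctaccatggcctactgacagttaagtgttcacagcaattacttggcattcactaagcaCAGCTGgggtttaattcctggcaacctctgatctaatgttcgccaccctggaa
Csmd2, strongest WT peak without a mutant peak, chr4:128239190-128239322: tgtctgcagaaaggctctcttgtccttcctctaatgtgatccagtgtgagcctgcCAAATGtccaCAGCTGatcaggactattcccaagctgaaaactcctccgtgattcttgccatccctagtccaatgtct
The kept Csmd3 peak held 4 E-box cores, 1 of them CAGCTG. The WT peaks of Csmd3 without a mutant peak held 2 each, as did that of Csmd2. The mutant peak of Csmd1 held 1 and that of Csmd3 held 0. The 6 stretches were picked and differ in length. Within 100 bp of the summit, CANNTG was in 84.6% of WT peaks of Csmd3 with a mutant peak and 82.4% of those without. It was in 78.8% of the mutant peaks of Csmd3 without a WT peak, and in 76.1% of all WT peaks. Of the 6 stretches, the mutant peak of Csmd3 was the poorest in G and C, at 33.2%. None of the peaks printed whole had repeat-masked bases, and 10.9% of the bases around the kept summit were masked.

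Csmd3 had lower peaks in mutant than in WT at its strongest sites. Its strongest WT peak (48618586 to 48619144, intron 3, 173 kb from the start site) reached a pileup, the number of extended tags over the summit, of 92 in WT, of 100 in het and of 53 in mutant. The next (48601006 to 48601418, also intron 3) reached 74 in WT, 80 in het and 53 in mutant. Both were kept, with a mutant height below that of WT at nearly equal tag numbers. Het pileups rest on fewer tags and a longer extension and are not on the same scale.

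A cluster in intron 6 of Csmd3, 457 to 463 kb from the start site, went the same way. The peak at 48334860 to 48335240 had a pileup of 48 in WT, 40 in het and 30 in mutant. Its neighbour at 48328636 to 48329116 had 42 in WT, 22 in het and 17 in mutant. Between them, the peak at 48332568 to 48332722 had 33 in WT and 22 in het and was not in the mutant list. At −log10 q 17.06 it was the strongest WT peak of the 3 genes without a mutant peak. A further weak WT peak of the cluster (48333779 to 48333906, pileup 11) had no counterpart in het or mutant. The cluster thus held 4 WT, 3 het and 2 mutant peaks.

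Not all strong sites of Csmd3 went down. The 5 strongest WT peaks all had a lower pileup in mutant, but they were picked for their WT strength. Among the 5 strongest mutant peaks, 2 were higher in mutant than in WT: the peak at 48779560 to 48779714 had 19 tags in WT and in het and 30 in mutant, and the peak at 48789706 to 48790192 had 50 in WT, 69 in het and 56 in mutant. Both of these lie near the start site. At the start site itself, the pileup of the stronger peak was 46 in the WT list, 73 in het and 51 in mutant. For the weaker it was 38, 46 and 32. Csmd3 therefore kept an accessible promoter in every list.

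**Figure D1:**
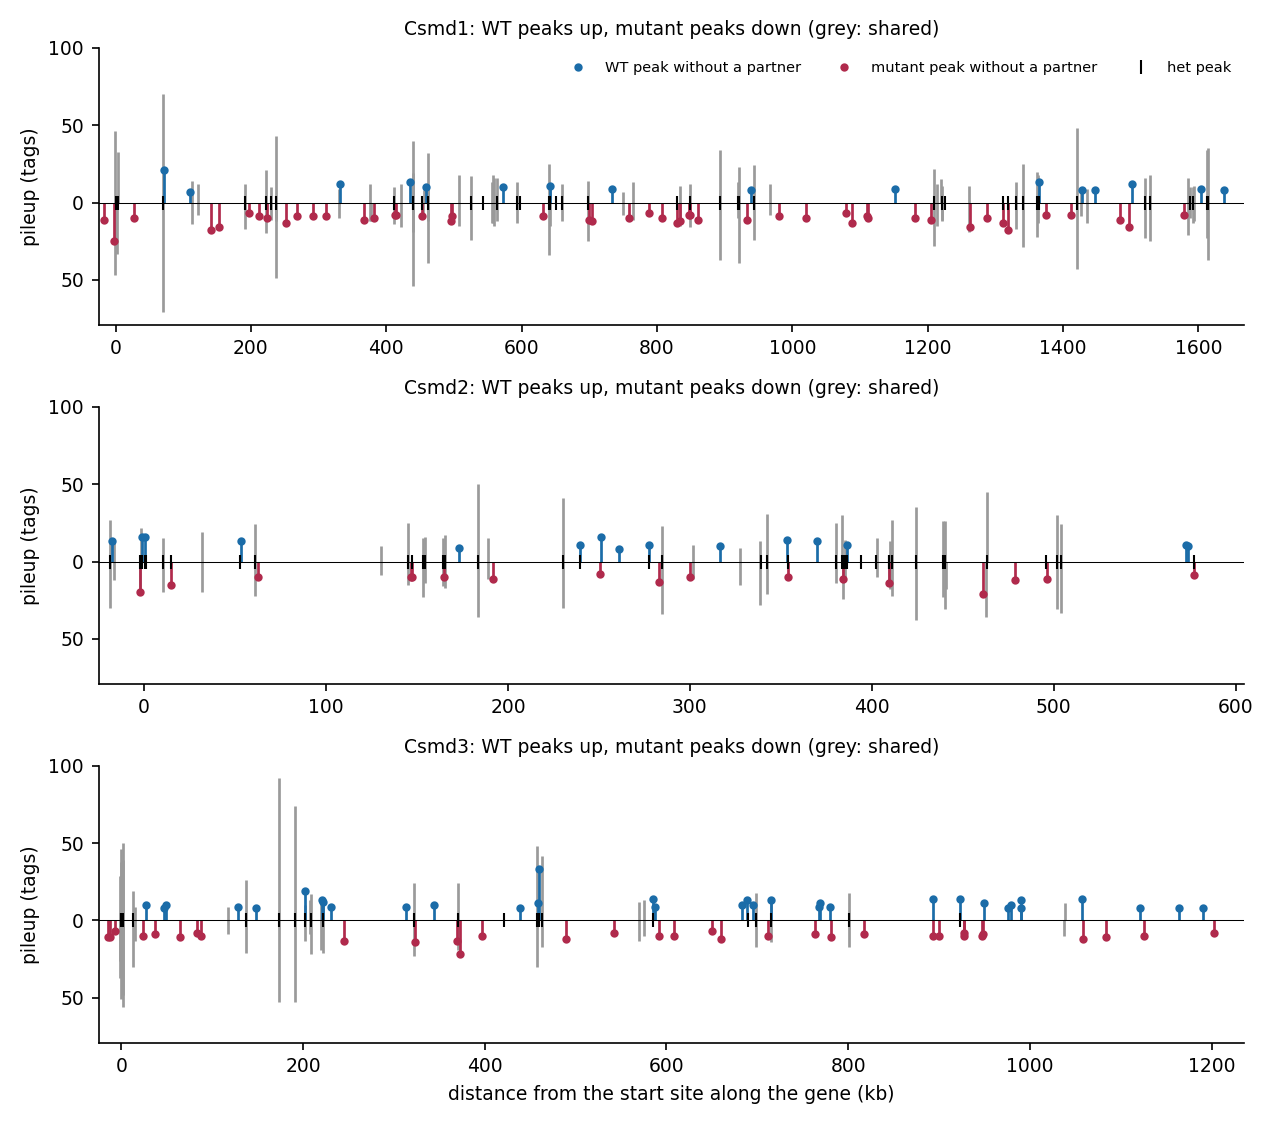
Peaks along Csmd1, Csmd2 and Csmd3, with the distance of the summit from the start site in kb on the x axis and pileup in tags on the y axis. WT peaks point up and mutant peaks down, grey bars are peaks with a partner in the other list, coloured bars with a dot are those without, and black ticks are het peaks. The tallest Csmd3 bars, at 173 and 191 kb, reach 92 and 74 in WT and 53 in mutant, and coloured bars fill the far part of Csmd3 on both sides.

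Of the 60 WT peaks of Csmd3, 34 had no overlapping mutant peak (56.7%, Wilson 95% CI 44.1 to 68.4%), beside 22.8% of all WT peaks. This is the property the gene was chosen for. The intervals here and below cover counting error over peaks only, and neighbouring peaks are not independent. The reverse share was of like size: 33 of 60 mutant peaks had no WT peak (55.0%, 42.5 to 66.9%), beside 30.7% of all mutant peaks. The number of peaks was thus 60 in both lists, at partly different places. A peak missing from a list fell below the caller's threshold there, which does not show that the site was closed. The distance from a WT peak without a partner to the nearest mutant peak had a median of 6.41 kb, and 9 of the 34 had a mutant peak within 1 kb.

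Csmd1 had more peaks in the mutant list. It held 74 WT peaks and 109 mutant peaks, of which 16 WT peaks (21.6%, 13.8 to 32.3%) and 48 mutant peaks (44.0%, 35.1 to 53.4%) had no partner. Csmd2 held 47 WT and 51 mutant peaks, of which 15 (31.9%, 20.4 to 46.2%) and 17 (33.3%, 22.0 to 47.0%) had none. Per 100 kb of window, WT peaks numbered 4.40 in Csmd1, 7.58 in Csmd2 and 4.79 in Csmd3, and mutant peaks 6.48, 8.23 and 4.79. The intervals of Csmd2 take in the shares of all peaks in both directions, and that of Csmd1 does so for WT peaks.

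**Figure D2:**
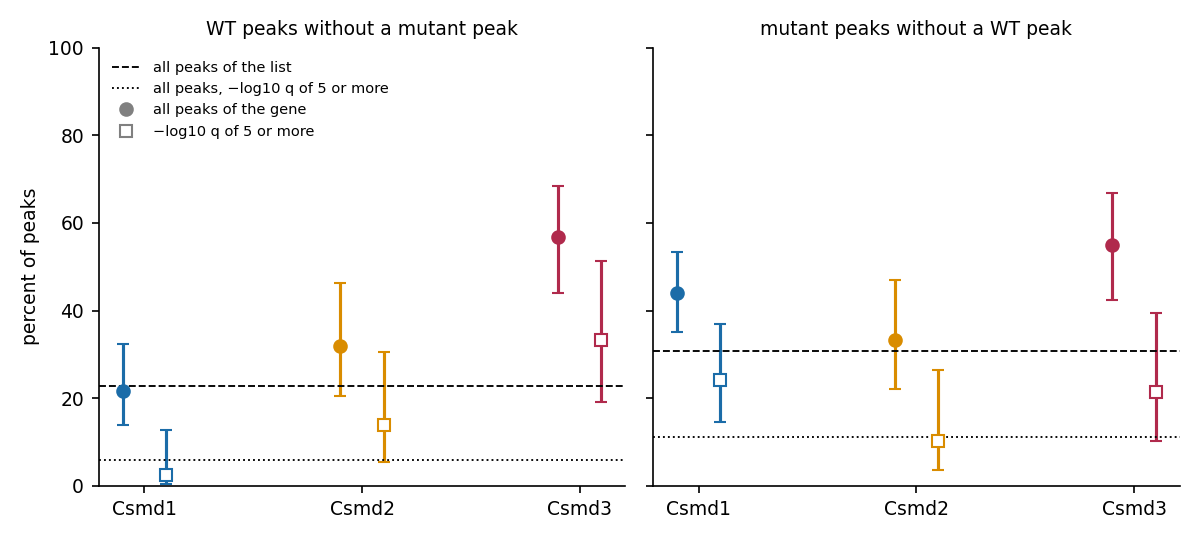
Share of the peaks of each Csmd gene without an overlapping peak in the other list, in percent, for WT peaks (left) and mutant peaks (right). Filled circles are all peaks of the gene, open squares those with −log10 q of 5 or more, bars are Wilson 95% intervals, and the dashed and dotted lines are the shares over all peaks of the list (22.8% and 5.78% for WT, 30.7% and 11.2% for mutant). Csmd3 is highest on the left in both classes.

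Peaks without a partner were mostly weak, in these genes as in the lists as a whole. In Csmd3 the unpartnered WT peaks had a median pileup of 10 (8 to 33), against 18.5 (9 to 92) for those with 1. In the mutant the medians were 10 (7 to 22) and 21 (9 to 56). If each WT peak of Csmd3 had the unshared share of all WT peaks in its strength decile, 30.6% would be without a mutant peak, and for mutant peaks 39.1%. The same figures were 28.3% and 40.2% for Csmd1 and 23.8% and 35.1% for Csmd2.

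Stronger peaks, with −log10 q of 5 or more, were counted in the same way. Of 30 such WT peaks of Csmd3 10 had no mutant peak (33.3%, 19.2 to 51.2%), beside 5.78% of all WT peaks of that strength. The share of Csmd3 was the highest of the 3 genes in the WT list. Of 28 such mutant peaks 6 had no WT peak (21.4%, 10.2 to 39.5%), beside 11.2%. Csmd1 had 1 of 41 WT peaks (2.44%) and 13 of 54 mutant peaks (24.1%, 14.6 to 36.9%) without a partner. Csmd2 had 4 of 29 (13.8%) and 3 of 29 (10.3%). Counting error does not separate the mutant shares of Csmd1 and Csmd3. With −log10 q of 10 or more, 2 of 15 WT peaks of Csmd3 had no partner (13.3%, 3.74 to 37.9%), beside 0.456% of all such WT peaks. In Csmd1 it was 0 of 18 and in Csmd2 0 of 17. Of mutant peaks of that strength, 2 of 24 in Csmd1 (8.33%), 0 of 16 in Csmd2 and 1 of 14 in Csmd3 (7.14%) had no partner, beside 1.21%.

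**Figure D3:**
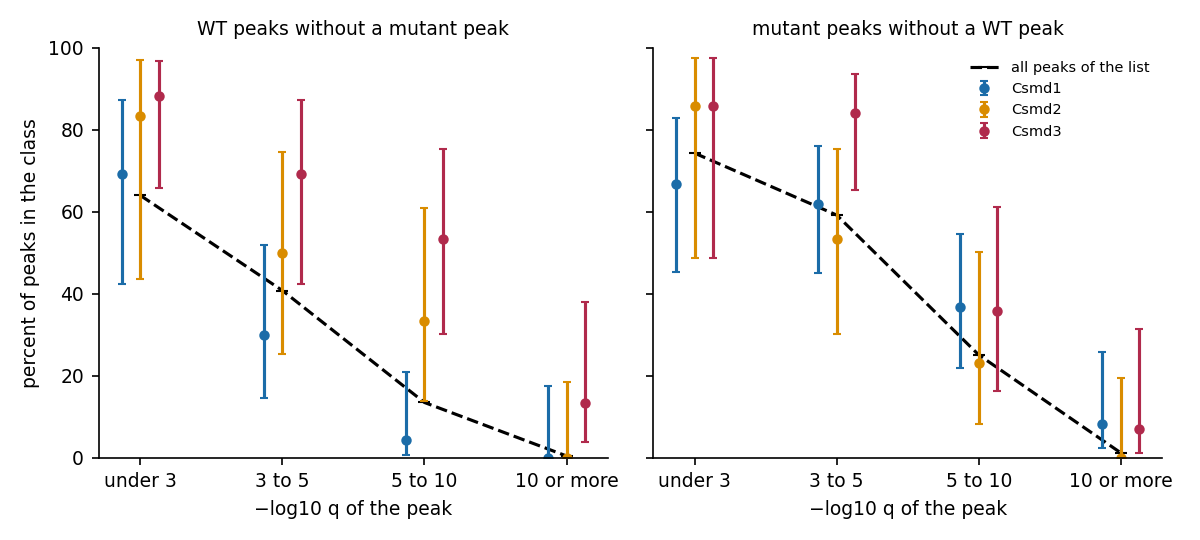
Share of peaks without a partner in 4 classes of −log10 q, in percent, for WT peaks (left) and mutant peaks (right) of each Csmd gene with Wilson 95% intervals. The dashed line joins the shares over all peaks of the list. In the class from 5 to 10, 8 of 15 WT peaks of Csmd3 had no mutant peak (53.3%) while 13.5% of all WT peaks of that class had none.

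Of the 10 stronger WT peaks of Csmd3 without a mutant peak, the 5 strongest are named here. After the intron 6 peak came 48590248 to 48590445 in intron 3, 202 kb from the start site, with a pileup of 19 and −log10 q of 12.07, which het also had. The next 3 all had a pileup of 14. They lay at 47898873 to 47899002 in intron 24, at 48207007 to 48207144 in intron 10, which het also had, and at 47734767 to 47734913 in intron 36. In the mutant list the strongest peak without a WT peak was 48419300 to 48419573 in intron 5, with a pileup of 22, −log10 q of 13.21 and no het peak. The 4 that followed had pileups of 12 or 13.

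Peaks without a partner were unevenly spread along Csmd3. The gene was cut into 4 parts of equal length. In the part nearest the start site 9 of 22 WT peaks and 6 of 19 mutant peaks had no partner. In the second part the counts were 7 of 13 in both lists. They were 8 of 11 and 9 of 12 in the third, and 10 of 11 and 8 of 9 in the part farthest from the start. Over all peaks 22.8% of WT and 30.7% of mutant peaks had none. Peaks also became weaker along the gene, with the highest −log10 q of a WT peak at 87.0 in the first part and 7.106 in the last. Of all WT peaks, 64.0% of those with −log10 q under 3 and 40.8% of those from 3 to 5 had no mutant peak. The part of strength in this spread was not tested. The longest run of consecutive WT peaks without a mutant peak held 7 peaks over 97.7 kb, from 893 to 990.7 kb, and that span held 6 mutant peaks at other positions and 1 het peak. In Csmd1, whose 4 parts had between 2 and 6 WT peaks without a partner, the last part still had a WT peak of −log10 q 37.9.

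Peaks of Csmd3 fell in repeats more often than those of the other Csmd genes. The window of 100 bp on either side of the summit was masked as repeat over at least 50% of its bases for 31.7% of WT peaks and 30.0% of mutant peaks of Csmd3. In Csmd1 this was 2.70% and 6.42%, in Csmd2 0 of 47 and 0 of 51 peaks, and over all peaks 6.43% and 5.98%. Within Csmd3 it was 38.2% of the WT peaks without a mutant peak against 23.1% of those with 1. When such peaks were set aside, a choice made after seeing the data, 51.2% of the 41 remaining WT peaks of Csmd3 had no mutant peak (36.5 to 65.7%), beside 20.4% of all remaining WT peaks. For mutant peaks it was 45.2% of 42 (31.2 to 60.1%), beside 28.8%. The part of tag length in these shares was not tested.

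The het list was also set against the other lists. It held 22 peaks in Csmd3, of which 21 overlapped a WT peak (95.5%, 78.2 to 99.2%) and 15 a mutant peak (68.2%, 47.3 to 83.6%), beside 86.7% and 89.3% of all het peaks. The intervals for the 22 peaks are wide, and that for WT takes in the share of all het peaks. Taken from the other side, 22 of the 60 WT peaks (36.7%) and 17 of the 60 mutant peaks (28.3%) had a het peak, beside 63.1% and 58.7% of all WT and mutant peaks. Of the 34 WT peaks of Csmd3 that the mutant lacked 6 had a het peak (17.6%), beside 13.2% of all such peaks. Of the 33 mutant peaks without a WT peak 0 of 33 had 1 (0 to 10.4%), beside 15.2%. Of the 26 shared WT peaks 16 had 1 (61.5%), beside 77.9%.

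In Csmd1 39 of 44 het peaks overlapped a mutant peak (88.6%) and 36 a WT peak (81.8%), both near the shares of all het peaks, while 1 of 16 WT peaks and 4 of 48 mutant peaks without a partner had a het peak. In Csmd2 33 of 41 het peaks overlapped a mutant peak and 32 a WT peak, and 6 of 15 WT peaks and 7 of 17 mutant peaks without a partner had a het peak (40.0% and 41.2%). Csmd2 was thus the gene whose unshared peaks were most often seen again in het, with wide intervals (19.8 to 64.3% and 21.6 to 64.0%). This was not particular to its unshared peaks. Of all WT peaks 68.1% had a het peak in Csmd2, against 51.4% in Csmd1 and 36.7% in Csmd3. Het peaks per 100 kb numbered 6.62 in Csmd2, 2.61 in Csmd1 and 1.76 in Csmd3. Joined within 300 bp, the peaks of the 3 lists gave 89 regions at Csmd3, of which 15 were in all 3 lists (16.9%), 25 in WT alone (28.1%) and 31 in mutant alone (34.8%). At Csmd1 35 of 118 regions were in all 3 lists (29.7%), 15 in WT alone (12.7%) and 41 in mutant alone (34.7%). At Csmd2 27 of 60 were in all 3 (45.0%), 8 in WT alone (13.3%) and 7 in mutant alone (11.7%). Over the genome these shares were 45.7%, 13.3% and 20.1%.

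In Csmd1 mutant peaks without a WT peak lay along the whole gene. They made up 44.0% of its mutant peaks (35.1 to 53.4%), beside 30.7% of all mutant peaks. At the shares of all mutant peaks in the same strength deciles it would be 40.2%, inside that interval. They numbered 12 of 25, 11 of 31, 14 of 25 and 9 of 25 mutant peaks in 4 parts of equal length from the start site on. The longest run held 8 such peaks over 225.7 kb, from 980.0 to 1206 kb, with 1 WT peak and 0 het peaks in the span. The strongest (16216113 to 16216285, intron 17, pileup 18, −log10 q 11.15) also had a het peak. The next, at 17394064 to 17394192 in intron 1, had a pileup of 18, and another, at 17381872 to 17382010 in the same intron, 16, both without a het peak. The strongest WT peak without a mutant peak (17203743 to 17203853, intron 2) had a pileup of 12 and −log10 q of 5.365. With both lists cut to the same number of strongest peaks, 34.1% of 82 mutant peaks of Csmd1 were without a WT peak, beside 24.6% of all mutant peaks.

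Of the 5 strongest WT peaks of Csmd1, 4 had a higher pileup in mutant. The peak at 17465302 to 17466053 in intron 1 had a WT pileup of 70, with 120 in het and 71 in mutant. The peak at 16114951 to 16115496 in intron 26 had 48, 49 and 43. The peak at 17095916 to 17096295 in intron 2 had 40, 50 and 54. The other two, at 17298108 to 17298822 in intron 1 and at 17073753 to 17074087 in intron 2, had 43, 64 and 49 and 32, 48 and 39. The same 5 sites were the strongest in mutant. The start site peak had a pileup of 46 in WT, 67 in het and 47 in mutant. Exon 58 of Csmd1 held a peak in each list, with a pileup of 34 in WT, 23 in het and 23 in mutant.

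At Csmd2 the start site differed from that of the other genes. A weak WT peak (127987843 to 127988336, −log10 q 3.461) had a pileup of 16, and het had peaks of 20 and 21 there, while no mutant peak lay within 1 kb of the start site. The nearest mutant peak upstream lay at 127985894 to 127986262 and had a pileup of 18. A second weak WT peak 1.39 kb upstream, with a pileup of 16, also had a het peak and no mutant peak within 300 bp. Further in, the strongest WT peak (128171139 to 128171964, intron 3) had a WT pileup of 50, with 63 in het and 36 in mutant. That at 128218028 to 128218590 in intron 5 had 41, 43 and 30. The peak at 128272504 to 128272897 went the other way, with 23, 28 and 34. The strongest WT peak without a mutant peak (128239190 to 128239322, intron 5) had a pileup of 16 and no het peak, and the strongest mutant peak without a WT peak (128449236 to 128449363, intron 27) had 21.

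Other annotated genes overlap these windows. The antisense gene Csmd2os, inside Csmd2, held 5 WT, 5 het and 7 mutant peaks in its body, and the upstream neighbour CK137956 had 2 WT, 0 het and 1 mutant peaks within 1 kb of its start, so peaks there cannot be given to 1 gene. The edge of each window lay 20 kb beyond the gene, and the density of peaks there was not measured. On the start side of Csmd3 the outermost WT peak inside lay 1.87 kb beyond the gene (−log10 q 5.24) and the nearest outside 26.1 kb beyond (7.82). For Csmd1 the nearest WT peak outside lay 22.6 kb beyond the start end (24.2). For Csmd2 the outermost inside lay 18.4 kb beyond (13.8) and the nearest outside 25.7 kb (4.53).

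For peaks in both lists, positions were compared by rank within each list. The rank of a peak is the percentage of its own list at or below its −log10 q, and the change is that of the mutant partner less that of the WT peak. Over all shared peaks the median change was 2.28 points and 38.1% ranked lower in mutant. In Csmd1 the median was 4.12 points, with 19 of 58 peaks lower. In Csmd2 it was −2.07 points with 19 of 32 lower, and in Csmd3 −0.40 points with 13 of 26 lower. The lists differ in length, which moves ranks. Ranked among partnered peaks alone, the median over all shared peaks was 0.56 points, and those of Csmd1, Csmd2 and Csmd3 were 3.0 (95% interval −2.07 to 7.31), −5.24 (−13.8 to 4.22) and −3.32 (−13.6 to 9.22). No gene then had a median whose interval leaves out 0. Weak peaks tended to rise by more points than strong ones. Each change was therefore also set against the median change of all shared peaks of the same WT rank. Below that value lay 31 of 58 peaks of Csmd1, 20 of 32 of Csmd2 and 15 of 26 of Csmd3. Over all shared peaks 49.7% lay below that value.

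Single peaks moved far in both directions within each gene. In Csmd3 the largest falls were at 48583952 to 48584221 (intron 3), by 37.7 points, and at the intron 6 peak 48328636 to 48329116, by 30.6 points. The largest rises were 37.0 points at 48776660 to 48776786 (intron 1) and 34.9 at 48571840 to 48572011 (intron 3). In Csmd1 the changes ran from −36.2 points at 17413305 to 17413494 (intron 1) to 41.1 at 16273605 to 16273843 (intron 11), and in Csmd2 from −32.7 at 128368193 to 128368408 (intron 13) to 48.9 at 128326794 to 128327184 (intron 12). The WT pileup of these peaks was between 9 and 13, except for 25 at the Csmd2 fall and 42 at the intron 6 peak of Csmd3.

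**Figure D4:**
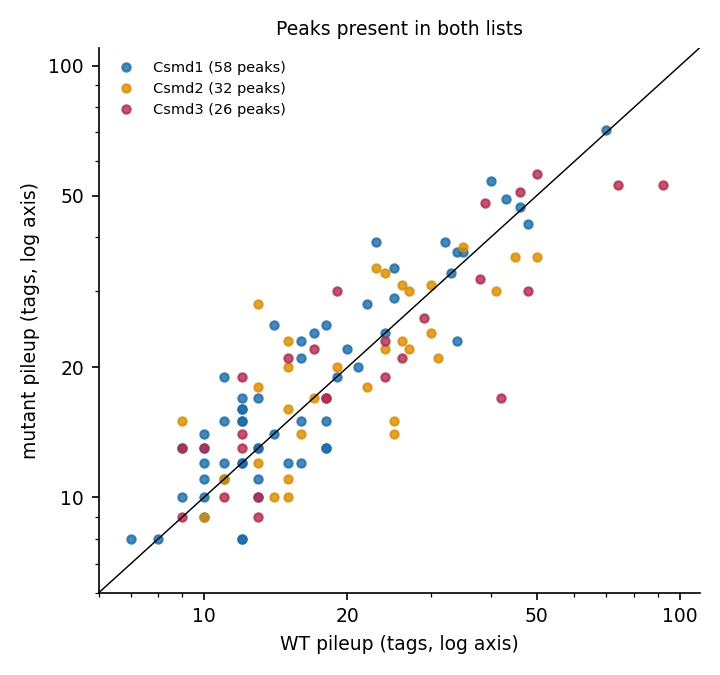
WT against mutant pileup, in tags on log axes, for the 58, 32 and 26 WT peaks of Csmd1, Csmd2 and Csmd3 that overlap a mutant peak. The line marks equal height. Mutant pileup was higher at 33 and lower at 14 of the Csmd1 peaks, lower at 17 and higher at 13 of the Csmd2 peaks, and lower at 14 and higher at 11 of the Csmd3 peaks. The median log2 ratio of mutant to WT pileup was 0.124, −0.12 and −0.072 in these genes, beside 0.093 over all shared peaks. The Csmd3 points at WT pileups of 92, 74, 48 and 42 lie below the line, and those at 50 and 46 above it.

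Sequence features of the summit windows were counted for 7 short motifs on both strands. The E-box core CANNTG was in 83.8% of the WT windows of Csmd1, 93.6% of Csmd2 and 83.3% of Csmd3, and in 76.1% of all WT windows. The form CAGCTG, which is also counted among CANNTG, was in 21.6%, 34.0% and 13.3%, against 23.6% overall. CAGCAGG, a Zic motif, was in 2 of 60 WT windows of Csmd3 (3.33%), against 12.2% overall. TTGGCA, the half-site of nuclear factor I, was in 28.3% of the Csmd3 windows, against 21.8%. TAATTA, a homeodomain core, was in 3.33% and TGANTCA, the AP-1 site, in 11.7%, against 4.68% and 6.24%. ATTGTT, a Sox motif, was in 9 of the 33 windows of mutant peaks of Csmd3 without a WT peak (27.3%), against 4 of 34 windows of WT peaks without a mutant peak (11.8%) and 9.97% of all mutant peaks without a WT peak. Median GC content was 47.0% in Csmd3, 47.8% in Csmd1 and 54.2% in Csmd2, against 51.7% over all WT windows. These are counts of letters and say nothing of binding.

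The length of the Csmd genes was taken into account by setting them beside other protein-coding genes of 500 kb or more. There were 230 of these, and 226 held at least 10 peaks in both lists. In the other 223 the median for WT peaks lacking a mutant peak was 25.7%, with 10th and 90th percentiles of 14.7 and 42.3%, and the median share of mutant peaks without a WT peak was 34.2%. By the first share Csmd3 came 2nd of 226, after Fstl5 (20 of 35 peaks, 57.1%) and before Cdh12 (44 of 78, 56.4%), and counting error does not separate these 3. By the share of mutant peaks without a WT peak Csmd3 came 6th, level with Diaph2. By the share of WT peaks with −log10 q of 5 or more that lacked a mutant peak it came 1st. The highest of the other genes had 28.6% there, which the interval of Csmd3 (19.2 to 51.2%) takes in. These peaks of Csmd3 are among those it was chosen for. Csmd1 was 141st and 37th by the first 2 shares and 7th by the ratio of mutant to WT peaks (1.47, against a median of 1.15). Csmd2 was 71st and 120th. Csmd3 was also 7th of 226 in the share of WT peaks whose summit window was at least 50% repeat-masked.

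**Figure D5:**
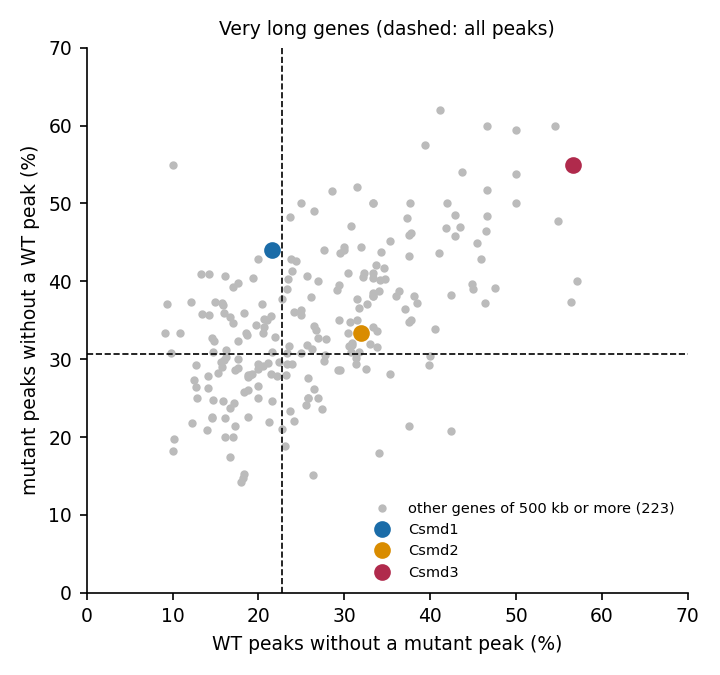
Share of WT peaks lacking a mutant peak (x axis, percent) against share of mutant peaks without a WT peak (y axis, percent) for 226 protein-coding genes of 500 kb or more. Grey points are 223 other genes, coloured points the Csmd genes, and dashed lines the shares over all peaks (22.8% and 30.7%). Csmd3, at 56.7% and 55.0%, lies at the upper right, Csmd1 above the lines' crossing at 21.6% and 44.0%, and Csmd2 among the other genes.

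The long genes closest to each Csmd gene in peaks per 100 kb in the 3 lists, by Euclidean distance on the log2 scale over 229 genes, gave a further setting. For Csmd3 they were Lrp1b, a giant lipoprotein receptor relative, and Lingo2 and Lrrc4c, which encode leucine-rich repeat membrane proteins of neurons. Their shares of WT peaks without a mutant peak were 47.6%, 38.5% and 45.0%, and of mutant peaks without a WT peak 39.1%, 37.3% and 39.0%. For Csmd1 they were Fam19a1, Thsd7b and Prkg1, with 33.3%, 43.8% and 29.5% of WT peaks and 50%, 54.1% and 43.6% of mutant peaks. For Csmd2 they were Sorcs1, Kalrn and Atp8a2, with 27.9%, 25.5% and 21.3% of WT peaks and 32.6%, 24.1% and 22.0% of mutant peaks. Csmd3 and Csmd2 each lay above their 3 neighbours in both shares, and Csmd1 lay below its 3 in the share of WT peaks. Counting error does not separate many of these. The WT interval of Csmd3 (44.1 to 68.4%) takes in Lrp1b and Lrrc4c, and that of Csmd1 (13.8 to 32.3%) takes in Prkg1. The WT interval of Csmd2 (20.4 to 46.2%) takes in all 3 of its neighbours. Its mutant interval (22.0 to 47.0%) takes in Sorcs1 and Kalrn, with Atp8a2 at its lower end. The WT share of Csmd3 is also the property it was chosen for.

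Other genes that encode CUB or sushi domains were shorter, and their shares of peaks without a partner varied. Over 23 of these genes, 43 of 262 WT peaks had no mutant peak (16.4%) and 86 of 310 mutant peaks had no WT peak (27.7%), beside 22.8% and 30.7% of all peaks. Of these genes 12 had at least 10 WT peaks, with shares from 0 to 43.8%. The highest was Tll1, a tolloid protease, with 7 of 16. The neuropilin genes, which encode semaphorin receptors, had 1 of 15 (Nrp1) and 3 of 24 (Nrp2). Sez6 and Sez6l, which encode neuronal proteins with a like arrangement of CUB and sushi domains, had 2 of 12 and 7 of 31. Bmp1, another tolloid-type protease, and its relative Tll2 had 0 of 13 and 0 of 11. Cubn, Susd1, Susd4, Susd6 and Lrp12 had between 12.5 and 22.2%. Complement genes, 21 in number, had 14 of 95 WT peaks (14.7%) and 22 of 100 mutant peaks (22.0%) without a partner, with peaks of neighbouring complement genes counted more than once.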

How the data were processed

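ATAC-seq peak lists of P7 GNPs were used for 3 genotypes (3 WT, 2 het and 3 mutant libraries, grouped by title). The submitters' processing notes name Trim Galore 0.4.1, STAR 2.5.0b for WT and mutant and Bowtie 1.0.0 for het, Picard 1.139 and MACS2 2.1.0.20150731 on mm10. The authors called each list on pooled libraries at a q-value of 0.05. For each peak they deposited the pileup signal at the summit in tags, a fold enrichment ratio over local background, and the −log10 q. No per-library values were used, so no test, replicate error or depth per library is given. The alignment and extension recorded in the file headers of WT and mutant differ from those in the study's methods.

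Genes came from GENCODE M21. Peaks were shared when they overlapped by at least 1 bp. Shares have Wilson 95% intervals, computed with python 3.11.15, numpy 2.4.6, pandas 2.3.3 and scipy 1.17.1. Overlap and rank code was tested on simulated data. Windows of 100 bp on either side of a summit, and the printed sequences, were read from the RefSeq copy of GRCm38.p6, where lower case marks repeats. All 3 genes, the gene lists and the motifs were chosen with earlier results of these data known. Named were the Csmd genes, members of the CUB or sushi and complement lists with at least 10 WT peaks, and the 3 nearest long genes. Named peaks were the 5 strongest WT peaks per gene, the 5 strongest without a partner within 300 bp in either direction, the 2 largest rank rises and falls, and start site peaks. Other genes and peaks named were chosen after their values were seen: Fstl5, Cdh12, Diaph2, Csmd2os and CK137956, the strongest mutant peaks, the exon 58 peak, the weak intron 6 peak, the mutant peak upstream of Csmd2 and the peaks at window edges. Alternatives covered the overlap rule, peak strength, list length, gene window and rank measure.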

Additional observations from a re-analysis of the deposited data

How the results depend on the processing

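Each peak list was called on pooled libraries, so leaving out a replicate was not possible. No paired analysis was possible because no value of a single library was used and no result comes from a test. Of 72 alternative values, 51 stayed within the counting interval of the reported value or, for numbers of peaks, within 1.5 times of it. The others follow, beside the share over all peaks of the list where that is given. With 50% reciprocal overlap, WT peaks without a mutant peak made up 47.3% in Csmd1 and 46.8% in Csmd2 (all peaks 35.9%), and mutant peaks without a WT peak 64.2% and 51.0% (43.8%). Among peaks with −log10 q of 5 or more set against the complete other list, the WT share was 2.44% in Csmd1, 13.8% in Csmd2 and 33.3% in Csmd3 (5.78%), and the mutant share 24.1%, 10.3% and 21.4% (11.2%). With that limit in both lists, the WT share of Csmd3 was 43.3% (13.7%) and the mutant share 20.7% in Csmd2 and 35.7% in Csmd3 (24%). With equal list lengths the mutant share of Csmd1 was 34.1% (24.6%). The same limit on strength left 41, 29 and 30 WT peaks and 54, 29 and 28 mutant peaks in Csmd1, Csmd2 and Csmd3. In Csmd3 the median rank change of shared peaks turned from −0.40 to 0.54 points when fold enrichment was ranked, inside the interval of −9.60 to 11.9 points of the median, so it has no direction here. The cause was not tested. No alternative brought the WT share of Csmd3 to or below that of all peaks. That share is the property the gene was chosen for, and every alternative drew on the same peak lists, so this adds no support.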
